A study of Mus musculus with 94 samples.

Results

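The genes described here are the interferon-induced genes of mouse white fat and the factors that drive them: 69 of the 20411 gene symbols counted. They are the symbols starting with Ifi, Oas, Isg, Irgm or Iigp, or with Gbp, Irf, Stat or Mx and a digit, that reached a mean of at least 0.5 CPM (counts scaled by the library total) over the 47 libraries of a depot. Of 76 matching symbols, 7 stayed below that level in both depots: Ifi202b, Ifi44l, Ifitm7, Oas1d, Oas1e, Oas1f and Oas1h. The members were chosen by name, with earlier results of these data known, and a matching name alone also brings in genes that are not interferon-induced. All 69 reached the level in both depots, and all but Ifi27l2b in epididymal fat were abundant enough for testing.

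Poly(A) RNA was sequenced from epididymal (eWAT, visceral) and inguinal (iWAT, subcutaneous) white fat of male C57BL/6JBomTac mice, 47 in all. Lean mice ate a low-fat diet throughout. Obese mice ate a high-fat diet for 18 weeks from 10 weeks of age, and regression mice ate it for 18 weeks and then returned to the low-fat diet for 2, 6 or 12 weeks. Each time had its own age-matched lean mice. There were 5 mice in the obese group and 6 in each of the other 7, and both depots came from each mouse. The groups are called biological replicates in the labels. Mice were kept in shared cages, and the cage of each mouse was not given in the sources used here.

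Interferons are secreted when cells sense viral nucleic acid or, for the gamma type, when T and NK cells are activated. Type I and III interferons act through receptors coupled to JAK kinases, which phosphorylate STAT factors. Together with IRF9 these form the complex that binds the interferon-stimulated response element (ISRE) in promoters. Interferon gamma acts mainly at gamma-activated sites (GAS). The induced proteins block viral replication (OAS, IFIT, IFITM and Mx families) or attack vacuoles that hold microbes (guanylate-binding proteins and immunity-related GTPases). Several of the regulatory factors, IRF5 and IRF8 above all, are also lineage factors of macrophages and other myeloid cells, and resident and recruited macrophages are abundant in obese visceral fat.

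Library totals ran from 1318944 to 25866576 counts in eWAT and from 6268458 to 34327987 in iWAT. The shallowest library belonged to the 2-week regression group of eWAT. Adipocyte markers summed to at least 9298 CPM in every library. Tissue of a neighbouring organ stood out in some libraries, and their part in the results below was measured by leaving them out. Genes of the efferent duct and epididymis summed to between 186.5 and 5784 CPM in 4 eWAT libraries (lean replicate 1 at 12 weeks, lean replicate 5 at 6 weeks, lean replicate 2 at 2 weeks and obese replicate 5) and to at most 20.4 CPM in the others. B cell genes, as in a lymph node, summed to between 223.9 and 1391 CPM in 7 iWAT libraries and to at most 83.9 CPM in the others. Skeletal muscle genes ran from 6.49 to 33230 CPM across iWAT libraries, and their part in the results was not tested.

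The letters of the response element were read from RefSeq promoters (build GRCm38.p6, from 250 bases before the start of transcription to 50 after it), which were found for 52 of the 69 members. The ISRE core searched was GAAA, any 2 bases and GAAA again, on either strand, which reads as TTTC, any 2 bases and TTTC on the other. It was present in 23 of the 52 promoters (44.2%), against 943 of 27025 promoters in the whole table (3.49%). The GAS letters, TTC, any 3 bases and GAA, were present in 13 (25.0%), against 8.47% of all promoters. All 5 promoters of guanylate-binding proteins and 5 of 6 of the IFIT genes held the core, as did 4 of 6 OAS promoters. It was found in 1 of 8 promoters of regulatory factors (Irf2) and 1 of 6 of STAT genes (Stat2). These are matches of letters in a window and not measured binding sites.

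Stretches of 60 bases around the core are shown for 1 or 2 genes of each family in which a promoter held it before the start. They are examples of the letters searched. They run 5′ to 3′ along the gene's own strand, and the capitals mark every whole match of the core, overlapping matches included. Isg15 lies at chr4:156200850-156200909 (minus strand), Ifit1 at chr19:34640779-34640838 (plus), Ifit3 at chr19:34583382-34583441 (plus), Oas3 at chr5:120777700-120777759 (minus), Gbp2 at chr3:142620579-142620638 (plus), Irgm2 at chr11:58214888-58214947 (plus), Ifi205 at chr1:174031855-174031914 (minus), Stat2 at chr10:128270251-128270310 (plus), Ifitm2 at chr7:140955973-140956032 (minus) and Irf2 at chr8:46739495-46739554 (plus).
Isg15: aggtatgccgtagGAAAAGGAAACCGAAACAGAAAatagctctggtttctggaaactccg
Ifit1: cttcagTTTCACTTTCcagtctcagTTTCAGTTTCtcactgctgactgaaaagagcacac
Ifit3: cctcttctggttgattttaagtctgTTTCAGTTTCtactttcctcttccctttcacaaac
Oas3: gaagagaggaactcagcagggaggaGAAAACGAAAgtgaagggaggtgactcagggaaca
Gbp2: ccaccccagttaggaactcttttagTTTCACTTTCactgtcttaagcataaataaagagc
Irgm2: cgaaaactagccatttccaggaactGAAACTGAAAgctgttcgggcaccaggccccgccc
Ifi205: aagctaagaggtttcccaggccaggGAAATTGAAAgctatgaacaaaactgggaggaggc
Stat2: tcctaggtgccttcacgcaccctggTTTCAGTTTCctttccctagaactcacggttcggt
Ifitm2: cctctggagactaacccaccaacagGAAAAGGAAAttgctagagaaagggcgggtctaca
Irf2: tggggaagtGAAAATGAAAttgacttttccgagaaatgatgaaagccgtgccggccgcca

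In eWAT more members were called higher than lower at every time. Obesity raised 10 of 68 members and lowered 2 (17.6% called), where 23.4% of the 14323 genes tested were called (14.1% higher and 9.31% lower). At 2 weeks of regression 25 rose and 2 fell (39.7%, against 35.7% of all genes, 18.6% higher and 17.1% lower). At 6 weeks 11 rose and 1 fell (17.6%, against 7.58%, 5.56% higher and 2.02% lower). At 12 weeks 27 rose and none fell (39.7%, against 15.3%, 10.8% higher and 4.51% lower). A call means that the p-value, Benjamini-Hochberg adjusted over all genes tested in the depot, fell under 0.05 in edgeR's quasi-likelihood test against lean mice of the same age. The median log2 fold change of the members was 0.23, 0.41, 0.34 and 0.49 in time order, while that of all genes lay between -0.03 and 0.02. In bulk tissue, more cells of a type and more RNA per cell cannot be told apart. Each of the 4 comparisons has its own lean and treated mice.

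**Figure D1:**
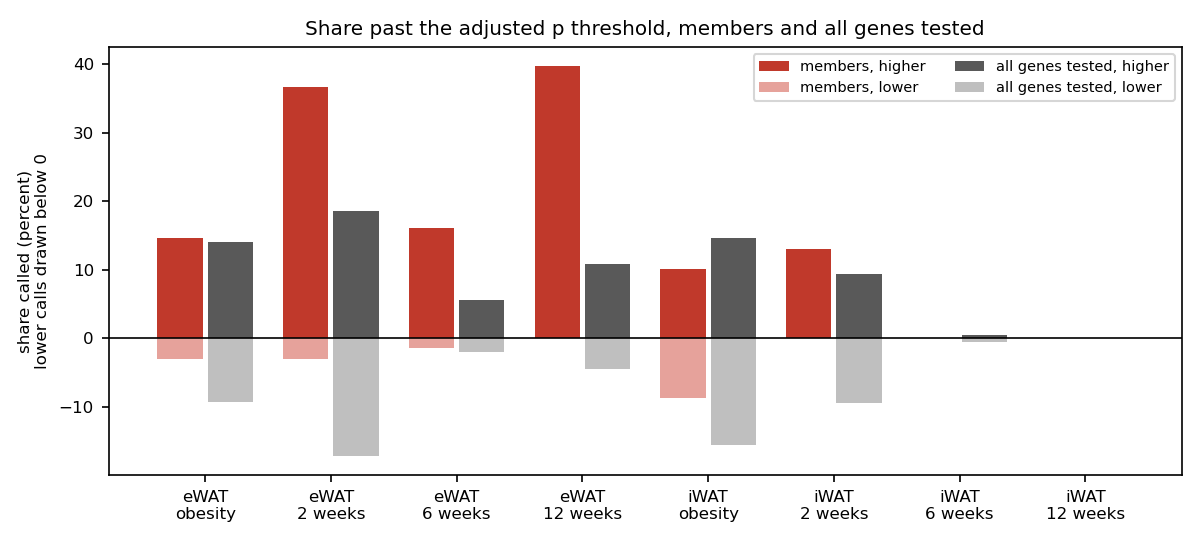
Percent of the tested members (68 in eWAT, 69 in iWAT) and of all genes tested that were called higher (upward) or lower (downward) than in lean mice of the same age, at obesity and after 2, 6 and 12 weeks of low-fat diet. In eWAT 10, 25, 11 and 27 members are called higher and at most 2 lower. In iWAT 7 and 9 are called higher and 6 and 0 lower at the first 2 times, and no member is called later.

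Single libraries moved 3 of the 4 eWAT counts. At obesity 6 members were called without obese replicate 4 (1722 of all genes, where the main fit called 3346). There were 20 without obese replicate 1 (3560 genes) or without obese replicate 5 (3483). At 6 weeks 2 were called without regression replicate 6 (178 of all genes, where the main fit called 1086). There were 6 without regression replicate 5 (583 genes) and 7 without lean replicate 3 (664). At 12 weeks 15 were called without lean replicate 2 (1403 of all genes, where the main fit called 2195). There were 16 without regression replicate 4 (1280 genes) and 15 without regression replicate 5 (1374). The 2-week count stayed between 25 and 30. With the 4 libraries of duct signal left out, 20, 26, 8 and 21 members were called in time order. At obesity that refit called 3501 of all genes, where the main fit called 3346. Its counts of all genes at the later times are not given here.

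Of the 68 members tested in eWAT, 39 (57.4%) were called higher at 1 time or more, 4 (5.88%) lower, and 25 (36.8%) at no time, where 26.0%, 24.3% and 50.4% of all genes tested were. Those called higher at all 4 times, as 3.37% of all genes were, were Irf5, Irf8, Ifi30 and Ifi47. A further 7 were called higher at 3 times: Ifi203, Ifi204, Ifitm3, Irf1, Oas3, Oasl2 and Stat6. All 11 members higher at 6 weeks were among the 25 of 2 weeks, and 10 of them were among the 27 of 12 weeks. Over all genes 88.7% of the 6-week list was in the 2-week list and 74.2% in the 12-week list. The 2-week and 12-week lists shared 14 (56.0% and 51.9% of them, against 44.8% and 77.0% over all genes), and the lists of obesity (10 members) and of 2 weeks shared 6 (60% and 24.0%, against 61.2% and 46.3%). Of the 4 called at every time, all had a RefSeq promoter, and none of these windows held the ISRE core. The core was absent from 29 of the 52 member promoters and present in 3.49% of all promoters. The window of Irf8 held 2 matches of the GAS letters, and those of Irf5, Ifi30 and Ifi47 held none.

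**Figure D2:**
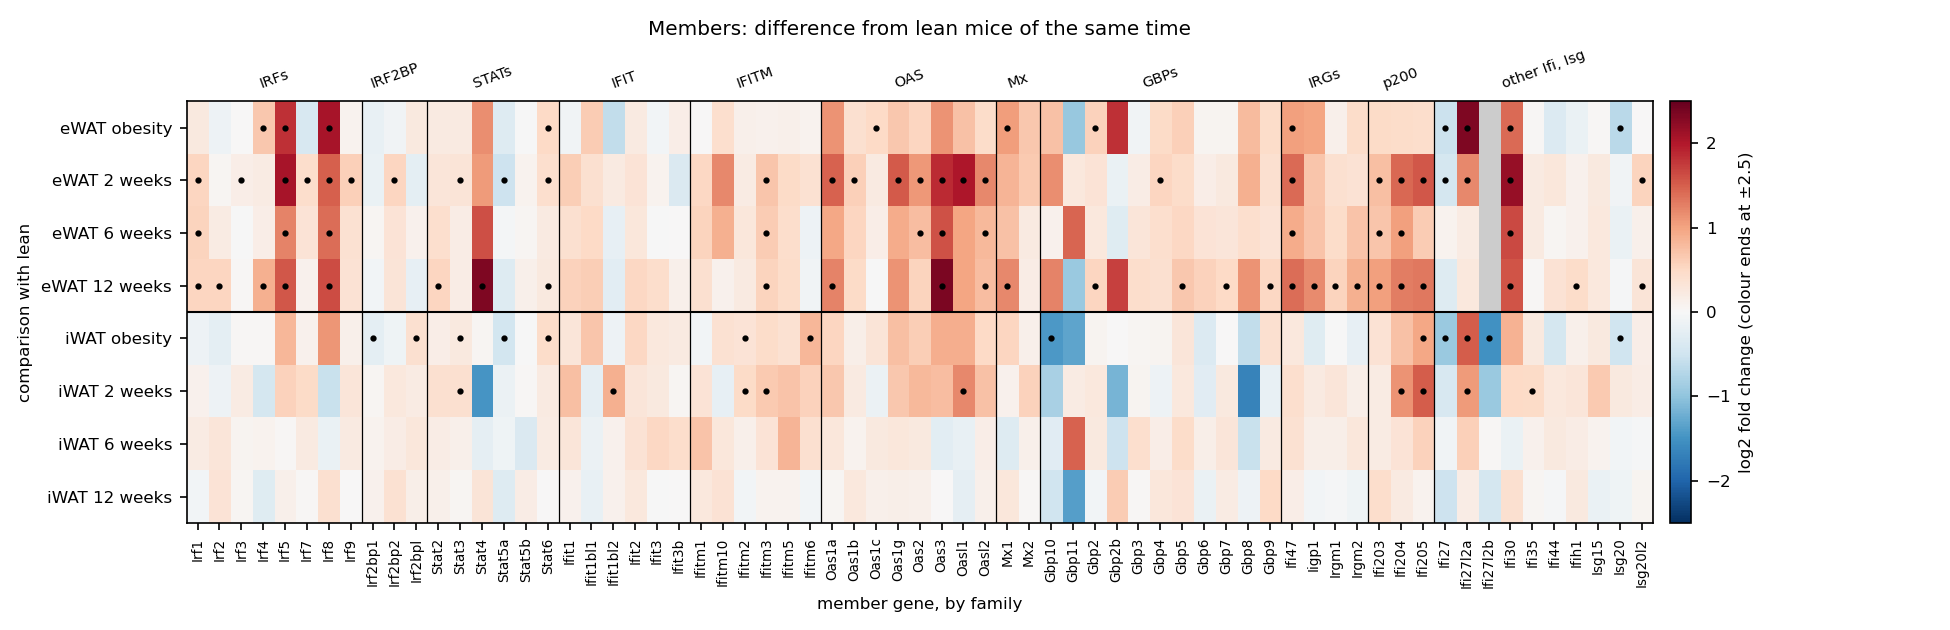
Log2 fold change against lean mice of the same age for 67 members (by family) in the 4 eWAT and 4 iWAT comparisons, with colour ends at 2.5 in either direction. A dot marks an adjusted p under 0.05 and grey marks Ifi27l2b, which was not tested in eWAT. Dots cluster in eWAT at 2 and 12 weeks, and the IFIT family carries none there.

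Among the interferon regulatory factors, Irf5, which relays Toll-like receptor signals in macrophages, rose at every time. In eWAT the 5 obese mice had 21.7, 40.1, 20.3, 76.6 and 17.0 CPM (here and below, CPM of the TMM-scaled library total), against 7.55 to 12.5 in the 6 lean mice (median 10.0), with no overlap. The log2 fold change was 1.83 ± 0.39 (adjusted p = 0.000754). Throughout, ± gives a standard error worked out as the size of the change divided by the square root of the test's F statistic. At 2 weeks of regression Irf5 ran from 19.4 to 56.1 CPM (median 48.3) against 6.91 to 12.7 (median 10.5), again without overlap, a change of 2.07 ± 0.38 (adjusted p = 5.77e-05). At 6 weeks regression mice ran from 9.98 to 58.9 CPM (median 27.0) and lean mice from 11.5 to 16.0 (median 12.4), so the groups overlapped. That change, 1.23 ± 0.37 (adjusted p = 0.0348), was the least stable of the 4: leaving out any of 7 libraries in turn ended the call, with an adjusted p of 0.17 at most, without regression replicate 6. At 12 weeks the median was 44.3 CPM against 12.7, yet the lowest regression mouse, at 8.51 CPM, stood below the lowest lean mouse at 8.94. The change was 1.55 ± 0.37 (adjusted p = 0.00462).

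Irf8, which specifies dendritic cells and monocytes, followed a like course. Obese mice had 51.4, 103.9, 39.7, 200.5 and 31.1 CPM against 17.3 to 24.8 in lean mice (median 20.25), with no overlap and a log2 fold change of 2.07 ± 0.37 (adjusted p = 0.000124). Its changes at 2, 6 and 12 weeks were 1.5 ± 0.35, 1.40 ± 0.35 and 1.62 ± 0.35, with adjusted p = 0.00092, 0.0128 and 0.0019. The 6-week call ended without regression replicate 6 (adjusted p = 0.0575). At 12 weeks regression mice ran from 24.9 to 145.2 CPM (median 108.5) and lean mice from 20.3 to 35.8 (median 30.2).

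The factors that carry the interferon signal itself had smaller fold changes. Irf7, the amplifier of type I interferon production, was called only at 2 weeks, at 28.8 to 39.1 CPM (median 34.5) against 19.2 to 29.4 (median 25.3). That change of 0.45 ± 0.16 (adjusted p = 0.0286) lost its call without lean replicate 2 (adjusted p = 0.0764) and without regression replicate 4 (0.0508). At obesity all but 1 of the Irf7 values, 20.7, 21.3, 23.5, 29.7 and 17.3 CPM, lay below the lowest lean mouse at 25.8, and the change of -0.40 ± 0.17 did not pass (adjusted p = 0.0816). Irf9, the DNA-binding part of the type I interferon complex, was called only at 2 weeks too, at 0.60 ± 0.14 (adjusted p = 0.000629), with a median of 50.2 CPM against 34.2 and no overlap. Irf1, the first factor induced by interferon gamma, rose by 0.53, 0.56 and 0.54 at 2, 6 and 12 weeks (standard errors 0.15; adjusted p = 0.00568, 0.0181 and 0.012). Its 6-week groups did not overlap, at 29.5 to 45.4 CPM against 21.8 to 27.3, but the call ended without regression replicate 5 (adjusted p = 0.0532) or 6 (0.0575). The 12-week call ended without regression replicate 2 (0.0534) or 5 (0.0514).

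Irf4, a factor of lymphocytes and of alternatively activated macrophages that adipocytes express too, was called at obesity (0.67 ± 0.24, adjusted p = 0.0372) and at 12 weeks (0.89 ± 0.23, adjusted p = 0.0083). Its obesity call ended without any of 5 libraries, at an adjusted p of 0.257 at most without obese replicate 4, whose 33.9 CPM stood above the other 4 obese mice at 14.4 to 18.4. Irf2 was called only at 12 weeks (0.53 ± 0.17, adjusted p = 0.0251) and Irf3, the virus-activated factor, only at 2 weeks (0.17 ± 0.07, adjusted p = 0.0454), calls that any of 4 and any of 5 libraries ended. Among the IRF2 binding proteins, which are corepressors, Irf2bp2 rose at 2 weeks (0.53 ± 0.12, adjusted p = 0.000519), while Irf2bp1 and Irf2bpl were called at no time.

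**Figure D3:**
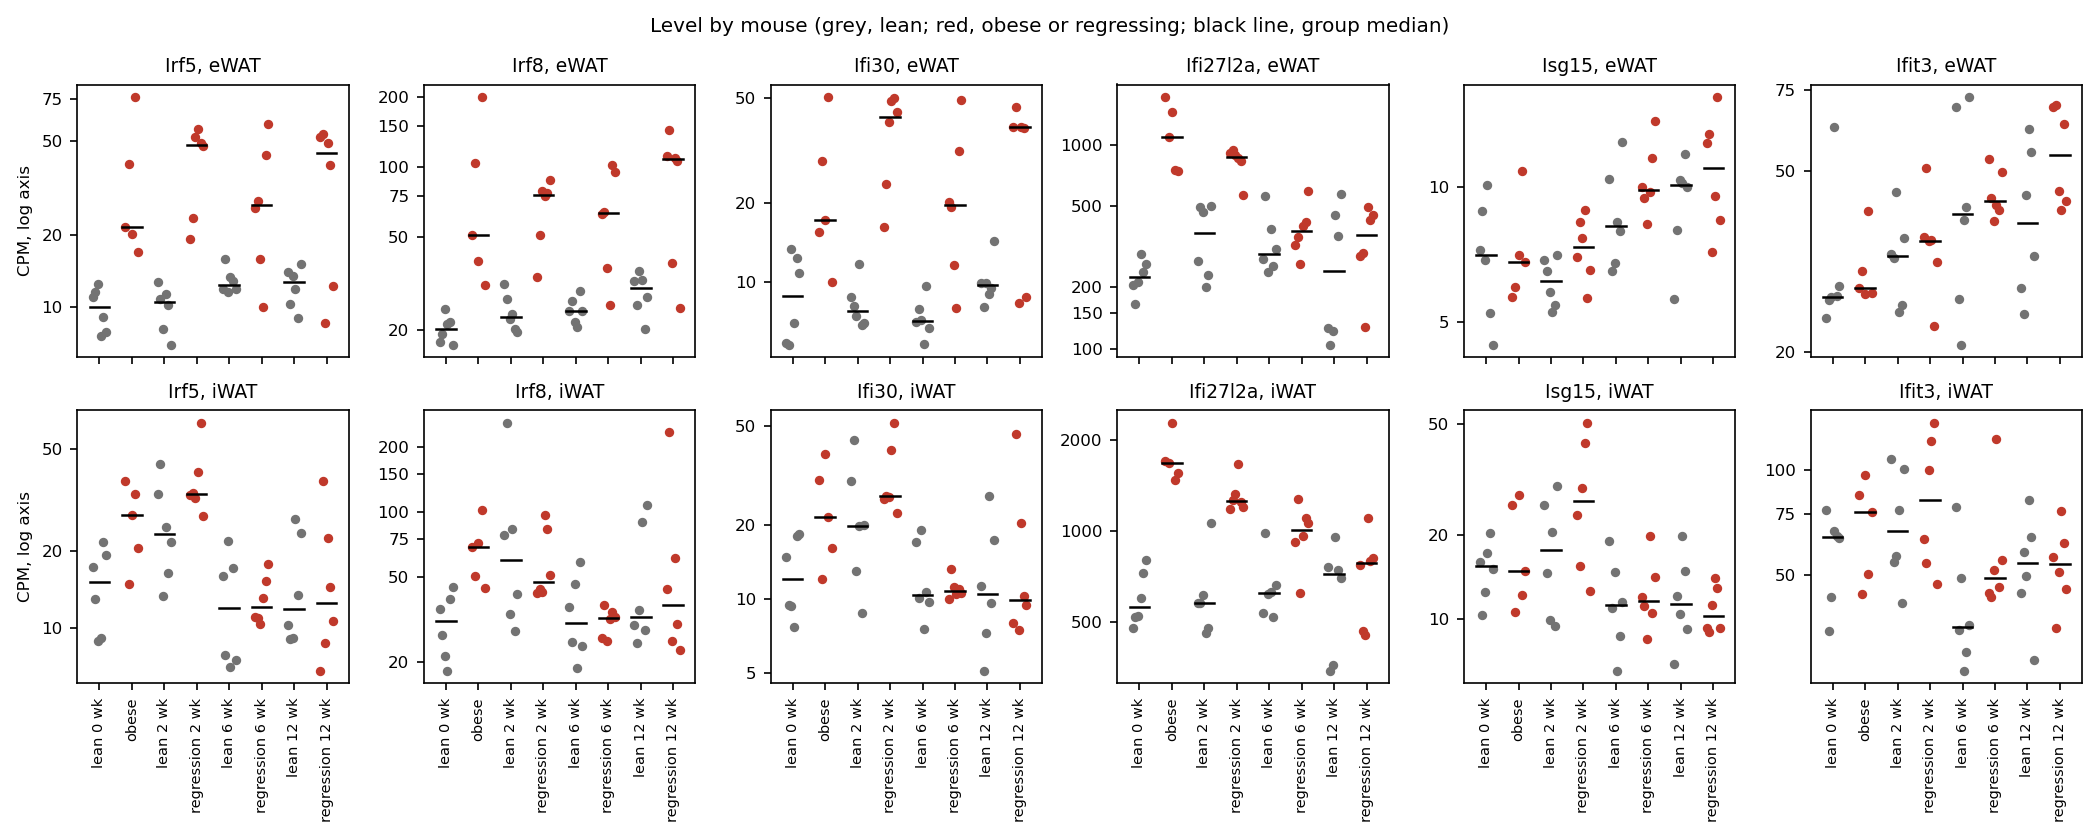
CPM of the TMM-scaled library total (log axis) of Irf5, Irf8, Ifi30, Ifi27l2a, Isg15 and Ifit3 in each mouse of the 8 groups of eWAT and of iWAT, 1 point per mouse. In eWAT Irf5, Irf8 and Ifi30 stay high to 12 weeks in most regression mice, Ifi27l2a overlaps lean mice from 6 weeks, and Isg15 and Ifit3 overlap between groups at every time.

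Of the STAT factors, Stat2 was called only at 12 weeks, at 0.55 ± 0.15 (adjusted p = 0.0119), with a median of 76.0 CPM against 48.6. Stat3, the factor of interleukin-6 signals, was called only at 2 weeks, at 0.33 ± 0.09 (adjusted p = 0.00562), without overlap. Stat4, which interleukin-12 activates in T and NK cells, was called only at 12 weeks, at 2.33 ± 0.54 (adjusted p = 0.0031), at a low level of 0.22 to 3.48 CPM (median 1.58) against 0.15 to 0.54. Stat6, the factor of interleukin-4 and interleukin-13, rose at obesity from 85.0 to 107.4 CPM in lean mice (median 105.7) to 145.8, 152.2, 123.4, 162.9 and 124.0, with no overlap, by 0.50 ± 0.09 (adjusted p = 0.000137). Its change was 0.42 ± 0.09 at 2 weeks (adjusted p = 0.000201), 0.23 ± 0.09 at 6 weeks (adjusted p = 0.0818) and 0.24 ± 0.09 at 12 weeks (adjusted p = 0.0454). The 12-week call ended when any of 9 libraries was left out. Stat5a, a mediator of growth hormone signals, fell by 0.51 ± 0.12 at 2 weeks (log2 fold change -0.51, adjusted p = 0.00122), and Stat5b was not called.

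The OAS genes, which include the makers of the oligoadenylates that activate RNase L, were the family with most calls at 2 weeks. There 7 of 8 rose, with a median log2 fold change of 1.33. At that time 2661 of all 14323 genes tested rose. At obesity 1 of 8 was called (Oas1c, 0.50 ± 0.15, adjusted p = 0.017, lost without lean replicate 2, adjusted p = 0.0541), and at 6 and at 12 weeks 3 each. Oasl1 rose at 2 weeks from 1.96 to 4.63 CPM (median 3.13) to between 5.03 and 22.2 (median 14.9), without overlap, by 2.01 ± 0.38 (adjusted p = 8.33e-05). Oasl2 ran from 38.7 to 85.7 CPM (median 55.4) against 23.1 to 30.1 (median 25.0), without overlap, by 1.19 ± 0.24 (adjusted p = 0.000145). Its calls at 6 weeks (0.81 ± 0.23, adjusted p = 0.0266) and 12 weeks (0.77 ± 0.23, adjusted p = 0.0208) ended without any of 4 and any of 3 libraries, at an adjusted p of 0.115 and 0.0747 at most. Oas3 rose by 1.87 ± 0.49, 1.59 ± 0.49 and 2.36 ± 0.50 at 2, 6 and 12 weeks (adjusted p = 0.00262, 0.0382 and 0.00172). At 12 weeks it stood at 1.19 to 10.3 CPM (median 6.16) against 0.41 to 1.87 (median 0.93). The 6-week call of Oas3 ended without any of 8 libraries, at an adjusted p of 0.173 at most. The other calls at those times, Oas2 at 6 weeks and Oas1a at 12 weeks, ended without any of 5 and any of 8 libraries. Near-identical copies such as Oas1a and Oas1g may share reads.

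The p200 genes, DNA sensors of the nucleus and cytosol, had 3 members: all 3 were called higher at 2 and at 12 weeks, 2 at 6 weeks and none at obesity. Over all 14323 genes tested, 2661, 1549, 796 and 2013 were called higher at 2, 12 and 6 weeks and at obesity. The change of the difference from obesity was called for none of the 3 at any time (adjusted p of 0.0606 at least). For Ifi204 obese mice had 16.0, 27.2, 29.2, 38.7 and 21.4 CPM against 16.9 to 20.8, and the change of 0.46 ± 0.23 did not pass (adjusted p = 0.142). At 2 weeks it ran from 29.3 to 74.9 CPM (median 46.95) against 16.4 to 21.9 (median 17.9), without overlap, by 1.43 ± 0.22 (adjusted p = 9.04e-06). Its changes at 6 and 12 weeks were 1.02 ± 0.22 (adjusted p = 0.0063) and 1.28 ± 0.22 (adjusted p = 0.000636). Ifi203 rose by 0.75, 0.69 and 1.02 at the same times (adjusted p = 0.00117, 0.0145 and 0.000636), and its 6-week call ended without regression replicate 6 (adjusted p = 0.0551). Ifi205 rose by 1.55 ± 0.29 at 2 weeks (adjusted p = 6.7e-05) and by 1.31 ± 0.29 at 12 weeks (adjusted p = 0.00203).

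The GTPases against vacuolar microbes, classical interferon gamma targets, were called mostly at the last time. All 4 immunity-related GTPases and 4 of 11 guanylate-binding proteins rose at 12 weeks, where 1549 of all 14323 genes tested did. Ifi47 was called at every time, by 1.03 ± 0.32, 1.41 ± 0.31, 0.93 ± 0.30 and 1.40 ± 0.30 (adjusted p = 0.0153, 0.000421, 0.0494 and 0.00195). Its obese mice had 17.9, 19.3, 16.9, 66.6 and 14.3 CPM against 7.50 to 17.1 in lean mice (median 14.4), and without obese replicate 4 the change was 0.39 and did not pass (adjusted p = 0.413). At 6 weeks the call ended without any of 9 of the 12 libraries. Irgm1, which keeps the family's other members off the cell's own membranes, was called only at 12 weeks, at 0.55 ± 0.19 (adjusted p = 0.0396). Its 40.5 to 91.0 CPM (median 72.8) stood against 39.1 to 52.2 (median 48.3), and leaving out any of 7 libraries ended the call. Irgm2 rose by 0.89 ± 0.23 (adjusted p = 0.00792) and Iigp1 by 1.18 ± 0.38 (adjusted p = 0.0314), a call that any of 6 libraries ended. Gbp2 was called at obesity (0.58 ± 0.20, adjusted p = 0.0295) and at 12 weeks (0.53 ± 0.19, adjusted p = 0.0492). At obesity 4 of the 5 values lay between 47.02 and 54.56 CPM, next to a lean range of 35.6 to 50.5, and obese replicate 4 had 120.8. The call ended without it (adjusted p = 0.402) and without lean replicate 2 or 6, and the 12-week call ended without any of 8 libraries. Gbp5, Gbp7 and Gbp9 were called at 12 weeks, calls that any of 6, any of 5 and any of 5 libraries ended, and Gbp4 only at 2 weeks (0.53 ± 0.21, adjusted p = 0.0406), a call that any of 7 libraries ended. Gbp4, Gbp8 and Gbp9 overlap in the annotation, and Gbp6 and Gbp10 are close copies, so their reads may be shared.

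None of the 6 IFIT genes, which bind viral RNA, was called at any time in eWAT, and the median of their log2 fold changes ran from 0.04 at obesity to 0.47 at 12 weeks. Ifit3 had 27.7, 30.1, 26.8, 40.7 and 26.9 CPM in obese mice against 23.8 to 62.4 (median 26.4) in lean mice. At 12 weeks it had 40.9 to 69.8 CPM (median 54.2) against 24.2 to 61.8 (median 38.3), and the change of 0.43 ± 0.25 did not pass (adjusted p = 0.218). Isg15, the ubiquitin-like modifier, was called at no time in either depot: obese eWAT had 5.66, 5.98, 7.05, 10.8 and 6.78 CPM against 4.43 to 10.1 (median 7.05). Its eWAT changes were 0.03, 0.24, 0.26 and 0.26 with standard errors of 0.20 or 0.21. Mx1 RNA was called at obesity (1.05 ± 0.37, adjusted p = 0.0324) and 12 weeks (1.2 ± 0.35, adjusted p = 0.016), at 12 weeks with 2.54 to 12.3 CPM (median 9.34) against 1.19 to 5.88 (median 3.35). The function of its product in these mice was not tested. The first of these calls ended without any of 6 libraries, the second without lean replicate 2 (adjusted p = 0.0539) or regression replicate 2 (0.0571).

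Ifitm3, which keeps viruses from leaving the endosome, was the only IFITM gene called in eWAT. Obese mice had 95.2, 124.3, 117.1, 148.8 and 104.8 CPM against 90.2 to 124.8 (median 110.8), a change of 0.12 ± 0.13 (adjusted p = 0.574). After the diet was switched it ran above every lean mouse, at 132.1 to 187.9 CPM (median 161.8) against 83.8 to 113.0 at 2 weeks and at 138.2 to 204.2 (median 175.2) against 89.5 to 132.5 at 6 weeks. Its changes at 2, 6 and 12 weeks were 0.69, 0.64 and 0.55 (standard errors 0.12; adjusted p = 3.99e-05, 0.00325 and 0.00227).

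Ifi27l2a, a gene of the small membrane proteins of the ISG12 family at chr12:103442167-103443680 (GENCODE M21, build mm10), had the largest log2 fold change of the members at obesity. It is also the most abundant member per length in lean mice of both depots, at 494.6 CPM per kb of exon in eWAT and 1315 in iWAT. Obese eWAT had 1720, 1099, 1454, 753.7 and 748.5 CPM against 166.8 to 291.1 in lean mice (median 225.1), with no overlap, a log2 fold change of 2.33 ± 0.35 (adjusted p = 1.53e-05). At 2 weeks it still ran above every lean mouse, at 570.0 to 942.6 CPM (median 876.5) against 200.5 to 500.0 (median 369.7), by 1.21 ± 0.33 (adjusted p = 0.00411). At 6 and 12 weeks the changes were 0.21 ± 0.33 (adjusted p = 0.721) and 0.26 ± 0.33 (adjusted p = 0.592), with medians of 376.5 against 292.5 and 361.0 against 241.6 CPM.

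Ifi30, the lysosomal thiol reductase GILT of antigen processing, rose at every time. Obese eWAT had 15.5, 28.9, 17.2, 50.5 and 10.0 CPM against 5.78 to 13.4 (median 8.89), by 1.41 ± 0.40 (adjusted p = 0.00828), and the call ended without obese replicate 4 (adjusted p = 0.107). At 2 weeks it ran from 16.21 to 50.01 CPM (median 42.5) against 6.87 to 11.7, without overlap, by 2.17 ± 0.39 (adjusted p = 4.65e-05). The changes at 6 and 12 weeks were 1.64 ± 0.39 (adjusted p = 0.00932) and 1.57 ± 0.38 (adjusted p = 0.00519), and the 6-week call ended without regression replicate 6 (adjusted p = 0.0691). Ifih1, the RNA sensor MDA5, was called only at 12 weeks, at 0.46 ± 0.10 (adjusted p = 0.00218), and Isg20l2, a ribosome-processing exonuclease, at 2 weeks (0.56 ± 0.10, adjusted p = 3.18e-05) and 12 weeks (0.32 ± 0.10, adjusted p = 0.0193). The 12-week call of Isg20l2 ended without lean replicate 2 or regression replicate 4 or 5.

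Going the other way, Ifi27 fell by 0.53 ± 0.18 at obesity (log2 fold change -0.53, adjusted p = 0.0252), from 170.1 to 311.7 CPM in lean mice (median 285.6) to 252.0, 149.2, 158.6, 137.5 and 205.1, and by 0.44 ± 0.17 at 2 weeks (log2 fold change -0.44, adjusted p = 0.0379). Any of 5 and any of 7 left-out libraries ended these calls. Isg20, an exonuclease of single-stranded RNA, fell by 0.67 ± 0.18 at obesity (log2 fold change -0.67, adjusted p = 0.00668), to 13.5, 9.74, 18.1, 9.04 and 11.8 CPM from 17.1 to 24.3 (median 17.9).

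Groups that did not overlap were common at 2 weeks and absent at 12. Every treated mouse stood above every lean mouse of its age for 5 members at obesity, 16 at 2 weeks, 5 at 6 weeks and 0 at 12 weeks, where 5.86%, 6.99%, 2.06% and 0.88% of all genes tested did so. No treated group stood wholly below its lean group for any member, where 3.48%, 5.65%, 1.01% and 0.726% of all genes tested did so. The regression mice of 12 weeks differed widely among themselves. Regression replicates 3 and 6 had 8.51 and 12.2 CPM of Irf5, and the other 4 had 39.6 to 53.4. For Ifi30 they had 8.36 and 8.76 against 38.6 to 46.4, for Ifi47 16.3 and 19.3 against 35.8 to 57.7, and for Oas3 1.19 and 2.16 against 5.24 to 10.3. Macrophage markers moved with this: they summed to 731.1 and 907.7 CPM in those 2 mice and to between 2636 and 4240 in the other 4. B cell genes summed to 6.12 and 15.3 CPM against 77.6 to 160.0, T cell genes to 9.26 and 8.66 against 40.6 to 97.0, and NK cell genes to 5.67 and 4.87 against 22.6 to 37.4.

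At obesity, the calls of Ifi30, Ifi47, Gbp2, Irf4 and Mx1, and that of Ifi27 as lower, ended without obese replicate 4. Its macrophage markers summed to 3889 CPM, against 850.0 to 2472 in the other obese mice, its B cell genes to 152.2 against 14.6 to 71.0, and its T cell genes to 84.4 against 7.19 to 20.2. Across the depot, all 10 macrophage markers were called higher at obesity, 2 weeks and 12 weeks and 9 of 10 at 6 weeks. Their summed level ran from 433.4 to 1026 CPM in lean mice of all ages and had medians of 1342, 2941, 1907 and 3132 CPM in treated mice in time order. T cell markers were called higher in 3, 3, 0 and 8 of 8, NK cell markers in 2, 1, 5 and 6 of 6, B cell markers in 1, 1, 0 and 3 of 8, lipid-associated macrophage markers in 4, 6, 4 and 5 of 7 and fibroblast and progenitor markers in 4, 4, 2 and 2 of 6. At 2 weeks 1 of the 7 lipid-associated macrophage markers was lower. Of 7 adipocyte markers 1 was lower and 1 higher at obesity, and 3 were lower at 2 weeks. With the mean log2 CPM of the B cell genes as a term of the model, 6, 22, 7 and 2 members were called in time order. This term left 1985, 617 and 96 of all genes called at obesity, 6 and 12 weeks. The main fit called 3346, 1086 and 2195 there. The part of the other marker lists was not tested.

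How closely each member went with the macrophage markers was measured from mouse to mouse within groups, as the correlation of deviations from the group mean over 47 mice (log2 of CPM + 0.5, 138 relations in both depots, permutation within groups, Benjamini-Hochberg adjusted). In eWAT the median r over the members was 0.455, 47 of 69 passed, and 3 of these were negative. The smallest r that passed was 0.303 in size. That size was reached by 49 members and by 45.2% of 14324 genes (24.8% positive and 20.4% negative), whose median r was -0.013. Irf5 had r = 0.96 (Spearman rho = 0.93; p = 1e-05, the smallest 100000 permutations can give, and adjusted p = 4.93e-05; r = 0.94 without the 2 mice farthest out). Irf8 had r = 0.91 (rho = 0.86) and Ifi30 r = 0.90 (rho = 0.81). At the other end Ifit3 had r = 0.17 (rho = 0.13, adjusted p = 0.215), Ifi27l2a r = 0.23 (rho = 0.14, adjusted p = 0.21) and Irf7 r = 0.29 (rho = 0.20, adjusted p = 0.112). Ifi27 had a negative r of -0.48 (rho = -0.49, adjusted p = 0.00113). In iWAT Irf5 had r = 0.89, Oas3 r = 0.86, Irf7 r = 0.73 and Ifit3 r = 0.47, and 48 of 69 members passed, 2 of them negative. All that passed had r of at least 0.36 in size, as had 44.0% of 13899 genes (21.1% positive and 22.9% negative, median r -0.039). The mouse numbers in the labels fall into 2 series, and within each of them Irf5 had r = 0.96 in eWAT and 0.89 in iWAT. Whether a member's r differs between depots was not tested.

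In iWAT members were called in both directions at obesity, higher at 2 weeks and not at all at 6 and 12 weeks. Obesity raised 7 of 69 members and lowered 6, while 30.2% of the 13899 genes tested were called (14.7% higher and 15.5% lower). At 2 weeks 9 rose and none fell (18.8% of all genes, 9.44% higher and 9.37% lower). At 6 and 12 weeks none was called by edgeR (1.04% of all genes at 6 weeks, 0.554% higher and 0.482% lower, and 0.0288% at 12 weeks, 0.0216% higher and 0.00719% lower). An unadjusted p under 0.05 was found for 10 and 5 members, and for 2502 and 2067 of all 13899 genes. DESeq2 called 1 and 0. The members' median log2 fold change was 0.17, 0.25, 0.19 and 0.08 in time order, and that of all genes lay between -0.02 and 0.04. The iWAT obesity count was 6 without lean replicate 4 (3372 of all genes, where the main fit called 4195) and 8 without obese replicate 3 (3721). With the B cell signal as a term, 22 members were called at 2 weeks (3549 of all genes, where the main fit called 2614). Leaving out the 7 libraries of lymph node signal gave 16, 11, 0 and 0 members. How many of all genes that refit called is not given here.

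Ifi27l2a had the largest rise called at obesity in iWAT: obese mice had 1714, 1688, 2291, 1477 and 1561 CPM against 477.2 to 804.1 (median 561.6), with no overlap, by 1.52 ± 0.23 (adjusted p = 6.97e-06). At 2 weeks it ran from 1182 to 1669 CPM (median 1258) against 462.1 to 1063 (median 578.7), again without overlap, by 1.07 ± 0.23 (adjusted p = 0.000868). Stat6 rose at obesity by 0.45 ± 0.09 (adjusted p = 0.000154), at 142.8, 141.9, 127.6, 153.5 and 120.4 CPM against 90.3 to 109.3, without overlap. Ifi205 was called at obesity (0.96 ± 0.37, adjusted p = 0.0456) and 2 weeks (1.52 ± 0.36, adjusted p = 0.00267), Ifitm2 at both (0.35 ± 0.12, adjusted p = 0.029, and 0.48 ± 0.12, adjusted p = 0.00388) and Stat3 at both (0.24 ± 0.09, adjusted p = 0.0487, and 0.40 ± 0.09, adjusted p = 0.00198). The obesity calls of Ifi205 and Stat3 ended without any of 7 and any of 8 libraries, and the 2-week change of Ifi205 was 0.95 without regression replicate 5 (adjusted p = 0.0387). The obesity change of Ifitm2 was 0.17 without obese replicate 3 (adjusted p = 0.289), and its call also ended without lean replicate 4. Irf2bpl rose at obesity (0.41 ± 0.15, adjusted p = 0.035), a call that any of 6 libraries ended.

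At 2 weeks Ifi204 had 58.1 to 220.1 CPM (median 72.8) in regression mice against 34.2 to 64.6 (median 44.2), by 1.13 ± 0.29 (adjusted p = 0.0055). Its call ended without regression replicate 5 (adjusted p = 0.0502) and without the lymph node libraries (0.0526). Ifitm3 rose by 0.66 ± 0.18 (adjusted p = 0.00933), Ifi35, an adaptor protein, by 0.48 ± 0.10 (adjusted p = 0.00104), Oasl1 by 1.21 ± 0.41 (adjusted p = 0.0351) and Ifit1bl2, the 1 IFIT gene called in either depot, by 0.88 ± 0.31 (adjusted p = 0.0382). The calls of Oasl1 and Ifit1bl2 ended without any of 5 and any of 7 libraries and that of Ifitm3 without the lymph node libraries.

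Those lowered by obesity in iWAT were Gbp10, Ifi27, Ifi27l2b, Irf2bp1, Isg20 and Stat5a. For these 6 of 69 members every obese mouse stood below every lean mouse, as for 1412 of 13899 genes (10.2%), a like share. The call of Gbp10 ended without lean replicate 4 (adjusted p = 0.0797), and that of Irf2bp1 without any of 3 libraries. Ifi27 had 192.4, 198.0, 164.5, 170.0 and 236.2 CPM against 311.9 to 443.7 (median 355.8), a log2 fold change of -0.93 ± 0.18 (adjusted p = 0.00018). Isg20 fell by 0.50 ± 0.14 (log2 fold change -0.50, adjusted p = 0.00629) and Stat5a by 0.46 ± 0.11 (log2 fold change -0.46, adjusted p = 0.00196). Macrophage markers were called higher in 8 of 10 at obesity and 3 of 10 at 2 weeks, and lipid-associated macrophage markers in 5 and 1 of 7. Fibroblast and progenitor markers were higher in 5 of 6 at obesity. At 2 weeks 2 of 4 neutrophil markers were higher, and 4 of 8 T cell and 2 of 4 plasmacytoid dendritic cell markers lower, and the part of these in the members' changes was not tested. Irf5, Irf8 and Ifi30 were not called in iWAT at any time. Their obesity changes were 0.84 ± 0.36, 1.11 ± 0.49 and 0.87 ± 0.40 (adjusted p = 0.0747, 0.0852 and 0.0979). Isg15 stood at 25.6, 10.5, 27.7, 12.2 and 14.8 CPM in obese iWAT against 10.3 to 20.2 (median 15.5), so the groups overlapped, and its change of 0.25 ± 0.32 did not pass (adjusted p = 0.594).

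Lean eWAT and lean iWAT already differed for most members. Compared within mice over the 24 lean mice of 4 ages (edgeR with the mouse as a block), 51 of 69 members were lower in eWAT and 4 higher, against 59.3% of 14749 genes called, 31.2% lower and 28.1% higher. The members' median log2 difference was -0.51, and that of all genes -0.02. Oas3 was lower by 2.44 ± 0.26 (log2 difference -2.44, adjusted p = 1.11e-10), Mx1 by 1.63 ± 0.20 (-1.63, adjusted p = 1.81e-09), Oasl1 by 1.44 ± 0.19 (-1.44, adjusted p = 1.94e-08) and Ifi27l2a by 1.23 ± 0.09 (-1.23, adjusted p = 3.31e-16). Irf7, Isg15 and Ifit3 were lower by 0.94, 0.91 and 0.68 (log2 differences -0.94, -0.91 and -0.68; adjusted p of 2.92e-05 at most). Those higher in eWAT included Ifitm1 (0.44 ± 0.15), Irf2bpl (0.35 ± 0.04) and Isg20 (0.24 ± 0.07). Lean macrophage markers had group medians of 587.1 to 695.9 CPM in eWAT and of 698.7 to 1620 in iWAT. Without the mice that had duct or lymph node signal, 42 members were lower and 5 higher. How many of all genes were called then is not given here.

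**Figure D4:**
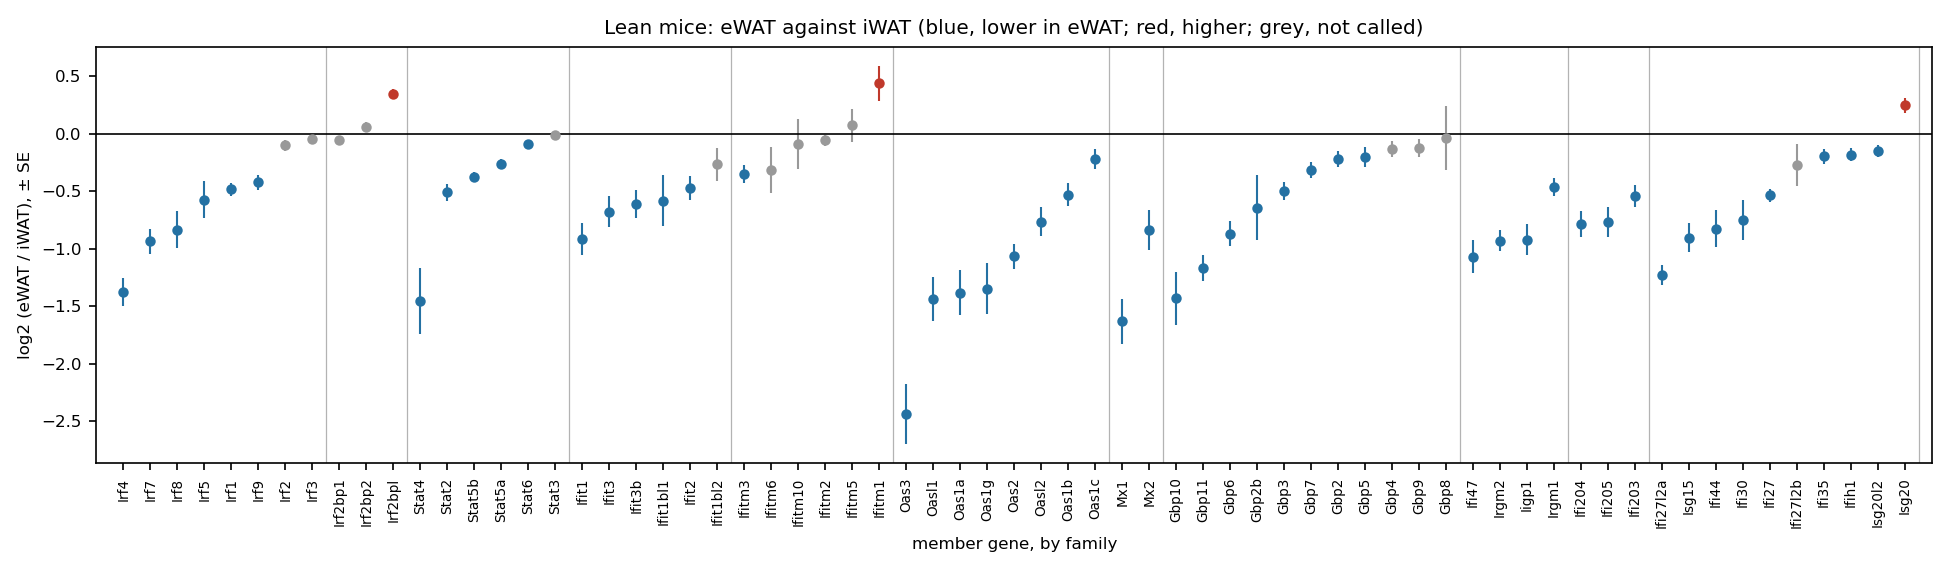
Log2 difference between lean eWAT and lean iWAT (y axis) for 67 members grouped by family, from 24 lean mice with the mouse as a block. Bars give the standard error worked out from the F statistic. Points under 0 are lower in eWAT, and Oas3 lies lowest, at -2.44.

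Whether the depots responded differently was tested as the difference between the 2 depots' changes, within mice. At obesity no member was called (1.32% of all genes, 0.671% higher and 0.651% lower). An unadjusted p under 0.05 was found for 4 members and for 1695 of all 14749 genes. At 2 weeks the change was higher in eWAT for 5 members and lower for 2 (8.29% of all genes, 3.84% higher and 4.45% lower). Irf8 differed by 1.61 ± 0.44 (adjusted p = 0.0178), Ifi30 by 1.49 ± 0.45 (adjusted p = 0.0312), Irf5 by 1.36 ± 0.43 (adjusted p = 0.04), Gbp10 by 2.12 ± 0.66 (adjusted p = 0.0377) and Gbp4 by 0.60 ± 0.19 (adjusted p = 0.0408). Irf2bpl differed by -0.44 ± 0.12 (adjusted p = 0.0162) and Stat5a by -0.37 ± 0.11 (adjusted p = 0.0305). Without the mice with duct or lymph node signal none of these was called, where 346 genes were. The differences were then 1.17 for Irf8, 1.32 for Ifi30, 1.13 for Irf5, 2.55 for Gbp10, 0.39 for Gbp4, -0.44 for Irf2bpl and -0.35 for Stat5a (adjusted p of 0.0584 to 0.272). At obesity 1 member and 321 of all genes were called without those mice, where the main fit called 195 genes. Irf8 in iWAT at 2 weeks had its highest value, 258.1 CPM, in lean replicate 2, a library of lymph node signal. At 6 and 12 weeks no member was called (0.597% of all genes at 6 weeks, 0.298% in each direction, and 0.061% at 12 weeks, 0.0407% higher and 0.0203% lower). An unadjusted p under 0.05 was found for 8 and 19 members, and for 2233 and 2548 of all 14749 genes. At 12 weeks 58 of 69 members had the larger change in eWAT, with a median difference of 0.36, where that of all genes was -0.012. The members share the same mice, and this count was not tested.

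The course from obesity to regression was tested as the change of the difference from lean. These comparisons share the obese mice and the lean mice of the obesity time. In eWAT the difference from lean was higher at 2 weeks than at obesity for 4 members, none of them called at obesity (5.82% of all genes called, 2.09% higher and 3.74% lower): Irf7 by 0.85 ± 0.23 (adjusted p = 0.0234), Irf2bp2 by 0.63 ± 0.17 (adjusted p = 0.0206), Ifitm3 by 0.58 ± 0.18 (adjusted p = 0.0433) and Isg20l2 by 0.55 ± 0.14 (adjusted p = 0.0143). All 4 calls ended when the duct libraries were left out (adjusted p of 0.0516 to 0.108), at changes of 0.71, 0.53, 0.57 and 0.52 in the same order. Single libraries ended those of Ifitm3 (any of 14 of 23), Irf7 (lean replicate 2 of 2 weeks or obese replicate 5) and Irf2bp2 (obese replicate 1 or 5). Ifi27l2a was the only one to fall, by 2.12 ± 0.48 at 6 weeks (-2.12, adjusted p = 0.014; 1.21% of all genes called, 0.314% higher and 0.901% lower) and by 2.07 ± 0.48 at 12 weeks (-2.07, adjusted p = 0.0106; 2.32% called, 0.726% higher and 1.6% lower). Ifih1 rose by 0.63 ± 0.15 at 12 weeks (adjusted p = 0.0124). For Irf5, Irf8 and Ifi30 no change from obesity was called at any of these times. For Irf5 the estimates were 0.24 ± 0.53, -0.60 ± 0.53 and -0.28 ± 0.53. In iWAT Isg20 rose by 0.74 ± 0.19 at 2 weeks (adjusted p = 0.0221; 4.0% of all genes called, 1.89% higher and 2.12% lower), and Ifi27l2a and Stat6 fell at 12 weeks (4.85% called, 2.35% higher and 2.5% lower), by 1.33 ± 0.32 (-1.33, adjusted p = 0.0103) and 0.45 ± 0.12 (-0.45, adjusted p = 0.0237). The call of Isg20 ended without obese replicate 4 (adjusted p = 0.0572), that of Stat6 without any of 4 libraries, and that of Ifi27l2a without the lymph node libraries (adjusted p = 0.0662). No member was called at 6 weeks (1.38%, 0.863% higher and 0.518% lower). There 11 members and 2349 of all 13899 genes had an unadjusted p under 0.05. Ageing of the lean mice alone, 12 weeks against the obesity time, gave no called member in either depot by edgeR. Over all genes 0.105% were called in eWAT (0.0419% higher and 0.0628% lower) and 0.496% in iWAT (0.309% higher and 0.187% lower). An unadjusted p under 0.05 was found for 4 and 3 members, and for 1772 of 14323 and 1573 of 13899 genes. DESeq2 called 1 member in eWAT and 0 in iWAT.

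The ligands were at the edge of detection. Interferon beta had 0 reads in all 47 eWAT libraries and 3 in iWAT, Ifna1 had none in either depot, and Ifna4 had 5 in eWAT and 2 in iWAT. Ifng, made by T and NK cells, had 100 reads over 29 eWAT libraries and 87 over 35 iWAT libraries, and none of the ligands was abundant enough to test. Of the 6 receptor genes tested, Ifnar1, a chain of the type I receptor, rose at all 4 times in eWAT, by 0.38, 0.30, 0.41 and 0.37, and Il10rb, a chain of the type III and interleukin-10 receptors, by 0.67, 0.95, 0.52 and 0.73. In iWAT both were called at obesity, by 0.25 and 0.50, and Il10rb at 2 weeks.

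Other genes of the pathway were counted by list. Beside 14.1%, 18.6%, 5.56% and 10.8% of all genes called higher in eWAT in time order, of 40 further interferon-induced genes 9, 22, 12 and 20 rose (22.5%, 55.0%, 30.0% and 50%) and none fell, with Slfn2, a growth regulator of immune cells, at 1.57, 2.06, 1.36 and 1.72, and Epsti1 at 1.02, 1.22, 1.33 and 1.96. Of 18 nucleic acid sensing genes 9, 13, 9 and 12 rose, and 1 fell at 2 weeks (Mavs, the mitochondrial adaptor, -0.51). Tlr7, the endosomal sensor of single-stranded RNA, rose by 1.69, 2.02, 1.56 and 1.95. Of 10 transducers and inhibitors 4, 9, 1 and 6 rose, Socs3 at every time. Of 17 interferon gamma and antigen processing genes 2, 6, 2 and 10 rose (11.8%, 35.3%, 11.8% and 58.8%) and 1 fell at obesity (Psme1, -0.31). Cxcl10 and Cxcl9, chemokines that interferon gamma induces, were not called at any time in either depot. In iWAT these 4 lists had 5, 4, 2 and 0, then 2, 3, 0 and 0, then 1, 1, 0 and 0, and last 0, 1, 0 and 0 genes higher, where 14.7%, 9.44%, 0.554% and 0.0216% of all genes were. The 5 of 40 at obesity are 12.5%. Those lower in iWAT were Mavs at obesity (-0.61) and 2 weeks (-0.42), H2-D1, a class I antigen-presenting molecule, at obesity (-0.27) and Cd274, the ligand PD-L1, at 2 weeks (-0.45). These lists were chosen with earlier results of these data known.

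Calls in eWAT were also counted by promoter. Of the 23 tested members with the core in their promoter 2, 5, 2 and 12 rose in time order (8.7%, 21.7%, 8.7% and 52.2%, where 14.1%, 18.6%, 5.56% and 10.8% of all genes did). Of the 29 without it 6, 15, 7 and 11 rose (20.7%, 51.7%, 24.1% and 37.9%). The medians were 0.16, 0.31, 0.30 and 0.55 with the core and 0.22, 0.48, 0.33 and 0.36 without it. These are counts with no test of the difference.

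Finally, the 2 depots of a mouse were set against each other. Over 47 mice, as deviations from the group mean in each depot, 14 of 69 members were correlated between eWAT and iWAT (adjusted p under 0.05, permutation within groups, adjusted over 69), 13 of them by Spearman's rho as well. All 14 had r of at least 0.416, a size that 19.9% of 13565 genes reached, so the members' share lay near that of all genes. The members' median r was 0.232 and that of all these genes 0.226, and the members' r ran from -0.21 to 0.85. Gbp11, a guanylate-binding protein gene annotated as a polymorphic pseudogene at chr5:105323042-105346472, had the highest: r = 0.85 and rho = 0.78 (p = 1e-05, the smallest possible; adjusted p = 0.000115 and 0.000138), 0.80 without the 2 mice farthest out, and 0.76 and 0.88 within the 2 series of mouse numbers (24 and 23 mice). It was called in no diet comparison. Ifi27l2a had r = 0.71 and rho = 0.72 (adjusted p = 0.000115 and 0.000138), Irf2 r = 0.68, Irf2bpl r = 0.66 and Gbp4 r = 0.64. Isg15 had r = 0.10 (rho = 0.07, adjusted p = 0.569) and Oas3 r = 0.03 (rho = -0.01, adjusted p = 0.876).

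**Figure D5:**
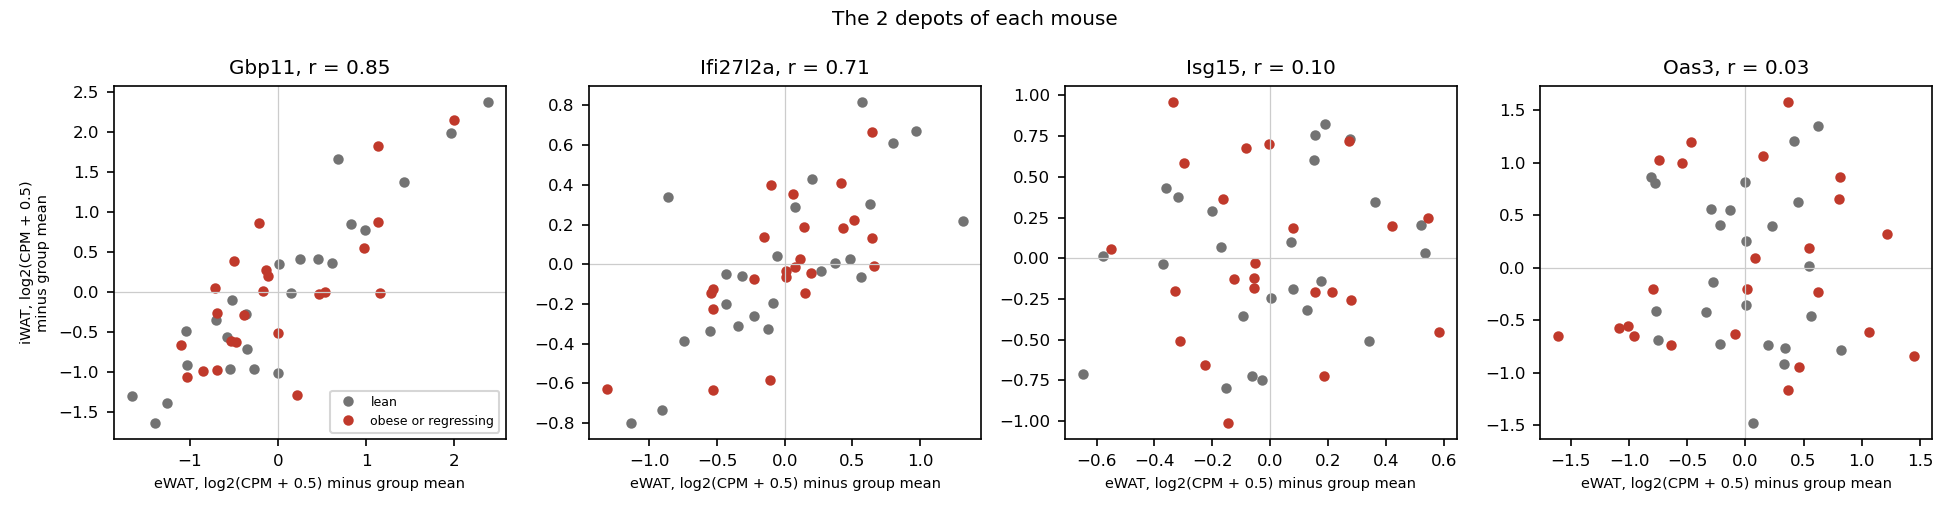
Deviation of each mouse from its group mean (log2 of CPM + 0.5) in eWAT (x axis) and iWAT (y axis) for Gbp11, Ifi27l2a, Isg15 and Oas3, 1 point for each of 47 mice. Points follow a line for Gbp11 (r = 0.85) and Ifi27l2a (r = 0.71), and scatter for Isg15 (r = 0.10) and Oas3 (r = 0.03).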

How the data were processed

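The deposited tables hold raw read counts per gene symbol, 1 table per depot, which the authors made from poly(A) paired-end libraries. Per the submitters' processing notes the tools included STAR 2.4.1c, R 4.2.2 and DESeq2 1.38.3, with the build mm10. The counting program, its strand setting and the annotation were not given in the sources used here, so overlapping and near-identical genes may share reads.

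The 69 members and all gene lists were chosen with earlier results of these data known. Genes were named by a written rule (a core of 20 members, the largest called changes, and members called at 3 or more times), and the others named were chosen after their values were seen. The counts were analysed in R 4.3.3 with edgeR 4.0.16: TMM scaling, filterByExpr for low counts at its defaults, and the quasi-likelihood test with the group as the only term over the 47 libraries of a depot. Depot comparisons used 94 libraries with the mouse as a block, since the labels give both depots the same mouse. P-values were Benjamini-Hochberg adjusted over all genes tested. Levels are CPM of the TMM-scaled total, while membership used plain totals. Changes of the difference from lean and differences between depots were contrasts of the same models. Correlations used 100000 permutations within groups.

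Replicate numbers do not pair the samples: same-numbered libraries had correlations of their deviations from -0.596 to 0.629. No 2 replicates held identical counts, and over 115 pairs the chi-square divided by its degrees of freedom was at least 3.63 in eWAT and 7.11 in iWAT. P-values measure the spread between these mice. The eWAT obesity test was tested on simulated data over 14221 genes, where it recovered 80 of 100 genes changed 2-fold and 98 of 100 changed 4-fold and called 10 of 14021 unchanged genes. The changed genes were drawn only from those above a level cut. Counts followed a negative binomial model without outlying mice, so this recovery need not hold for members of low level or wide spread. Alternatives were DESeq2 1.42.0, its size factors, no filter, the replicate block, the mouse series or the B cell signal as a term, the compared groups alone, each library left out in turn and, added after seeing the data, libraries with duct or lymph node signal left out. Library totals limit precision most in the eWAT library of 1318944 counts. Some members were counted but are not reported here by name, and the plots by gene show 67.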

Additional observations from a re-analysis of the deposited data

Results flagged for a closer look

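Single mice stood apart from their group in 20 of 192 groups of 5 or 6 mice, over 12 genes, by the gap to the nearest mouse as a share of the group's range. For normally distributed values, chance exceeds the cut used in about 1 in 20 groups. Here the values were untransformed CPM and the 12 genes share the same mice, so the 20 cannot be set against that rate. Obese replicate 4 was highest in eWAT for Ifi47 (66.55 CPM, next 19.26) and Isg15 (10.83, next 7.053). In iWAT regression replicate 2 of 12 weeks, a library of lymph node signal, was highest for Irf8 (232.3 CPM, next 60.88), Ifi30 (46.46, next 20.29) and Ifi47 (68.23, next 35.37). Lean replicate 2 of 2 weeks, also one of these, was highest for Irf8 (258.1 CPM, next 83.22).

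Gbp11 stood apart in both depots of the same mouse in 2 groups. Regression replicate 4 of 6 weeks had 64.25 CPM in eWAT (next 21.83) and 142.2 in iWAT (next 31.05), and lean replicate 4 of the obesity time had 28.26 (next 7.921) and 85.83 (next 21.58). Lean replicate 5 of 12 weeks had 33.77 CPM in eWAT (next 13.58), and obese replicate 5 had 27.74 in iWAT (next 7.79).

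For Ifi27l2a regression replicate 6 of 2 weeks was lowest in eWAT (570.0 CPM, next 829.6), and in iWAT lean replicate 2 of 6 weeks (984.2, next 662.8), lean replicate 6 of 2 weeks (1063, next 613.9) and regression replicate 4 of 2 weeks (1669, next 1334) were highest. The others were Ifi30 in eWAT lean replicate 6 of 12 weeks (14.39 CPM) and in iWAT regression replicate 2 of 6 weeks (13.26), Ifi27 in eWAT lean replicate 5 of 6 weeks, the library with most duct signal (147.6, the lowest) and Irf5 in iWAT regression replicate 5 of 2 weeks (63.2).

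Differences between times or depots passed their own test for 17 results. Against obesity, the difference from lean was higher in eWAT at 2 weeks for Irf7 (0.85), Irf2bp2 (0.63), Ifitm3 (0.58) and Isg20l2 (0.55), lower for Ifi27l2a at 6 weeks (-2.12) and 12 weeks (-2.07), and higher for Ifih1 at 12 weeks (0.63). In iWAT it was higher for Isg20 at 2 weeks (0.74) and lower at 12 weeks for Ifi27l2a (-1.33) and Stat6 (-0.45). Between depots at 2 weeks, eWAT minus iWAT was 2.12 for Gbp10, 1.61 for Irf8, 1.49 for Ifi30, 1.36 for Irf5, 0.60 for Gbp4, -0.44 for Irf2bpl and -0.37 for Stat5a. The values are log2.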

How the results depend on the processing

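No called change of any of the 69 members reversed its direction under an alternative run for it. Leaving out each library was run for the comparisons within a depot and, for the depot differences, only with the obese mice. Counts of members called moved by over 1.5 times as follows, and the cause was not tested. With the B cell signal as a term, eWAT gave 6 members at obesity, 7 at 6 weeks and 2 at 12 weeks, and iWAT gave 22, 2 and 3 at 2, 6 and 12 weeks, 1 for the change from obesity to 6 weeks and 1 for lean ageing. With the compared groups alone, eWAT gave 7 at obesity, 15 at 12 weeks and 1 for the change to 12 weeks, and iWAT gave 1 at 6 weeks and 2 and 1 for the changes to 6 and 12 weeks. DESeq2 gave 1 for lean ageing in eWAT, and 1 at 6 weeks and 1 for the change to 6 weeks in iWAT. The mouse series as a term gave 1 for that last change. With duct libraries left out, eWAT gave 20 at obesity and 0 for the change to 2 weeks, and without lymph node libraries iWAT gave 1 for the change to 12 weeks. Without mice of either signal the depot difference held 1 member at obesity and 0 at 2 weeks, and without the mouse block 1 at 2 weeks and 1 at 6 weeks. The count of all genes called moved in such refits too, to 96 in eWAT at 12 weeks with the B cell signal (2195 in the main fit).

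Leaving out each library in turn gave 6 to 20 members at obesity in eWAT, 25 to 30 at 2 weeks, 2 to 18 at 6 weeks and 15 to 40 at 12 weeks. It gave 1 to 6 for the eWAT change to 2 weeks, 2 for that to 12 weeks and 0 to 1 for lean ageing. In iWAT it gave 6 to 14 at obesity, 6 to 13 at 2 weeks, and 0 to 1, 0 to 2 and 1 to 3 for the changes to 2, 6 and 12 weeks. Such refits kept 1183 calls of single genes and ended 222. They moved the count of all genes too. In eWAT at 6 weeks 178 genes were called without regression replicate 6, where the main fit called 1086.

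Replicate numbers did not pair the samples. With the replicate block, 11, 27, 11 and 28 members were called in eWAT in time order and 13, 9, 0 and 0 in iWAT, with 1 for the iWAT change to 6 weeks. For that last change 204 of all genes were called, against 192 in the main fit. The other counts of all genes with the block are not given here. The block ended 7 calls of single genes and kept 103.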
